A study of Bos taurus with 12 samples.

Results

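In bovine intramuscular preadipocytes, 39 of 33714 rows of the mRNA table were gained after adipogenic induction and still stood above their uninduced level at 9 d. They were selected on the measured values. The lowest FPKM (fragments per kilobase of transcript, scaled to the mapped fragments) among the 9 libraries of 3, 6 and 9 d had to be at least 1 and at least 3 times the highest FPKM among the 3 libraries of 0 d. Of the 41 rows that passed both limits, ADAMTS4 and CXCL12 were left out because their lowest 3 d value was at least 8 times the highest of all other libraries. The height of the 39 members over 0 d is therefore how they were chosen, and it is given here as a description with no test.

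The cells were precursors of fat cells from the longissimus dorsi muscle of newborn cattle, and their uninduced state in growth medium is called 0 d. Induced cells received DEX (dexamethasone, a synthetic glucocorticoid), 0.5 mM IBMX (an inhibitor of phosphodiesterases) and 5 µg/ml insulin for 48 h, and insulin at that dose alone afterwards, per the labels (the authors' methods state another insulin dose). They were sampled 3, 6 and 9 d after induction, so that all 9 induced libraries come from after the withdrawal of DEX and IBMX. Each day had 3 libraries, which the authors call biological replicates, of a single batch of cells over all days. Neither they nor the labels say whether these came from separate cultures or animals, so the p-values below measure the spread between these libraries, part of which may be technical. The scaling of the circular RNA table implies 53304904 to 77339520 reads per library, and the FPKM of a library summed to 1221194 to 1371794 over all mRNA rows. Both ends of that range of reads lie below those of the valid reads the authors state, nearly all of them mapped. The reason for this gap is not known.

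Induction cocktails for fat cells combine a glucocorticoid, an agent that raises cAMP, and insulin, and together these switch on a cascade of transcription factors that ends in the uptake, synthesis and storage of lipid. Direct targets of the glucocorticoid receptor respond to the hormone and decline once it is gone, whereas genes of the maturing fat cell are held by the factors of the cascade. Fat cells within muscle form the marbling of meat, and fat cells and their precursors also secrete complement factors, growth factors and matrix proteins.

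Over the 9 induced libraries, mean FPKM of the members ran from 4.42 (CD36) to 921 (MASP1). Added up within a library, the members held 361 to 390 FPKM before induction. That sum was 6034 to 6285 in the libraries of 3 d, 3961 to 4322 in those of 6 d and 3329 to 3631 in those of 9 d, so their joint level was highest at 3 d and these days did not overlap. As a share of all FPKM of a library this was 0.0275% to 0.0295% at 0 d and 0.481% to 0.515% at 3 d, and by 9 d it was 0.243% to 0.265%. The mean over 3 libraries was highest at 3 d for 23 members, at 6 d for 9 and at 9 d for 7. At 9 d the members stood at 2.40% (CD163) to 583% (CA9) of their 3 d mean, with a median of 39.9%. Being kept thus covered very different courses, from mRNAs that retained a small remnant of their 3 d level to mRNAs that were at their highest on the last day. In bulk RNA, a change in the number of cells that express a gene and a change in the RNA per cell cannot be told apart.

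**Figure D1:**
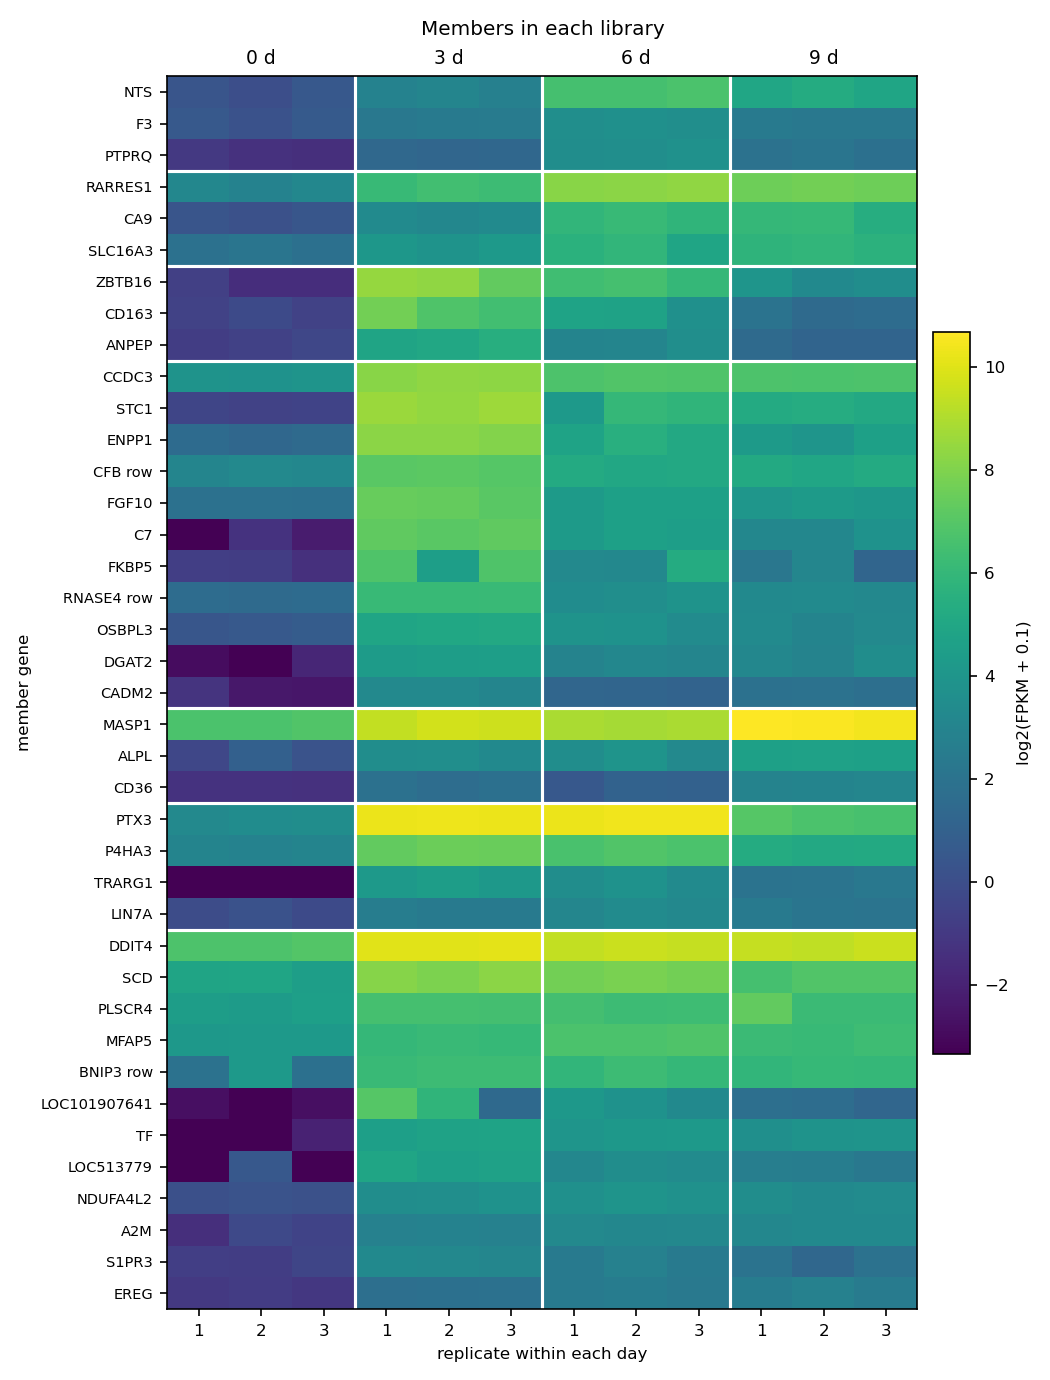
Level of the 39 members in each of the 12 libraries, as log2(FPKM + 0.1) by colour, with libraries in columns (replicates 1 to 3 of each day) and members in rows. White lines separate the days and the groups of members that share their calls between induced days, and the CFB, RNASE4 and BNIP3 rows each carry several gene names. Colours run from dark (low) to yellow (high); every member is higher in the 9 induced libraries than at 0 d, which is how the members were chosen, and PTX3, MASP1 and DDIT4 are the most abundant.

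The limits of the choice lie within a continuous range of values. Just inside the ratio of 3 were SCD (lowest induced FPKM 92.7 against a highest 0 d FPKM of 30.1, a ratio of 3.08), PLSCR4 (74.6 against 24.2, also 3.08) and the row that joins RNASE4, ANG2 and ANG (9.14 against 2.94, 3.11). Among the rows just outside were the matrix proteoglycan DCN at 2.96 and the ectonucleotidase NT5E at 2.91. At the floor of 1 FPKM, the lowest induced value was 1.35 for CD36, 2.11 for CADM2 and 2.17 for ANPEP, and the nearest rows left out were LOC112445666 at 0.94, DNER at 0.84 and the lipid droplet gene PLIN4 at 0.80. The 3 d value of ENPP1 was 6.02 times its highest value elsewhere, that of C7 5.73 times and that of FGF10 5.67 times, below the limit of 8 that removed ADAMTS4 (11.7) and CXCL12 (9.44). A ratio of 2 gave 73 members and a ratio of 4 gave 25, so the number 39 belongs to this ratio. All 39 were protein-coding genes in the reference table except the long noncoding RNA LOC101907641 and the pseudogene LOC513779.

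How the members moved between the induced days was tested with limma. The floor and the ratio compare no induced days, whereas the limit on 3 d peaks set 3 d against all other libraries, and each of them bounds how far a member could differ. From 3 d to 6 d, 6 members rose and 14 fell, against 9.85% of all 15402 mRNAs tested that were higher and 9.23% that were lower. From 6 d to 9 d, 3 rose and 10 fell, against 2.55% and 1.89% of all mRNAs. Over the whole span from 3 d to 9 d, 6 rose and 21 fell, against 10.2% and 10.3%. The median log2 difference of the members was -0.68 and -0.49 in the successive steps, beside -0.09 and -0.04 over all mRNAs tested. Among the 41 rows given by the floor and the ratio alone, 6 rose and 16 fell from 3 d to 6 d, 3 rose and 11 fell from 6 d to 9 d, and 6 rose and 23 fell from 3 d to 9 d. The shares of all mRNAs are a background, and the difference from them was not tested. The 3 comparisons share libraries and are not independent of each other.

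Seen together, the calls sort the members into several courses. In 11 members the level fell from 3 d to 6 d and no later change was called, and ANPEP, CD163 and ZBTB16 fell in both steps. LIN7A, P4HA3, PTX3 and TRARG1 were called only in the later step, in which they fell. F3, NTS and PTPRQ rose to 6 d and fell again, CA9, RARRES1 and SLC16A3 rose to 6 d with no later call, and ALPL, CD36 and MASP1 rose from 6 d to 9 d. For the other 12 members no call was made in either step, which does not show that their level was constant. The 95% interval of the log2 difference from 3 d to 9 d lay within 1 in either direction for 8 members, and for 50.5% of all mRNAs tested.

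**Figure D2:**
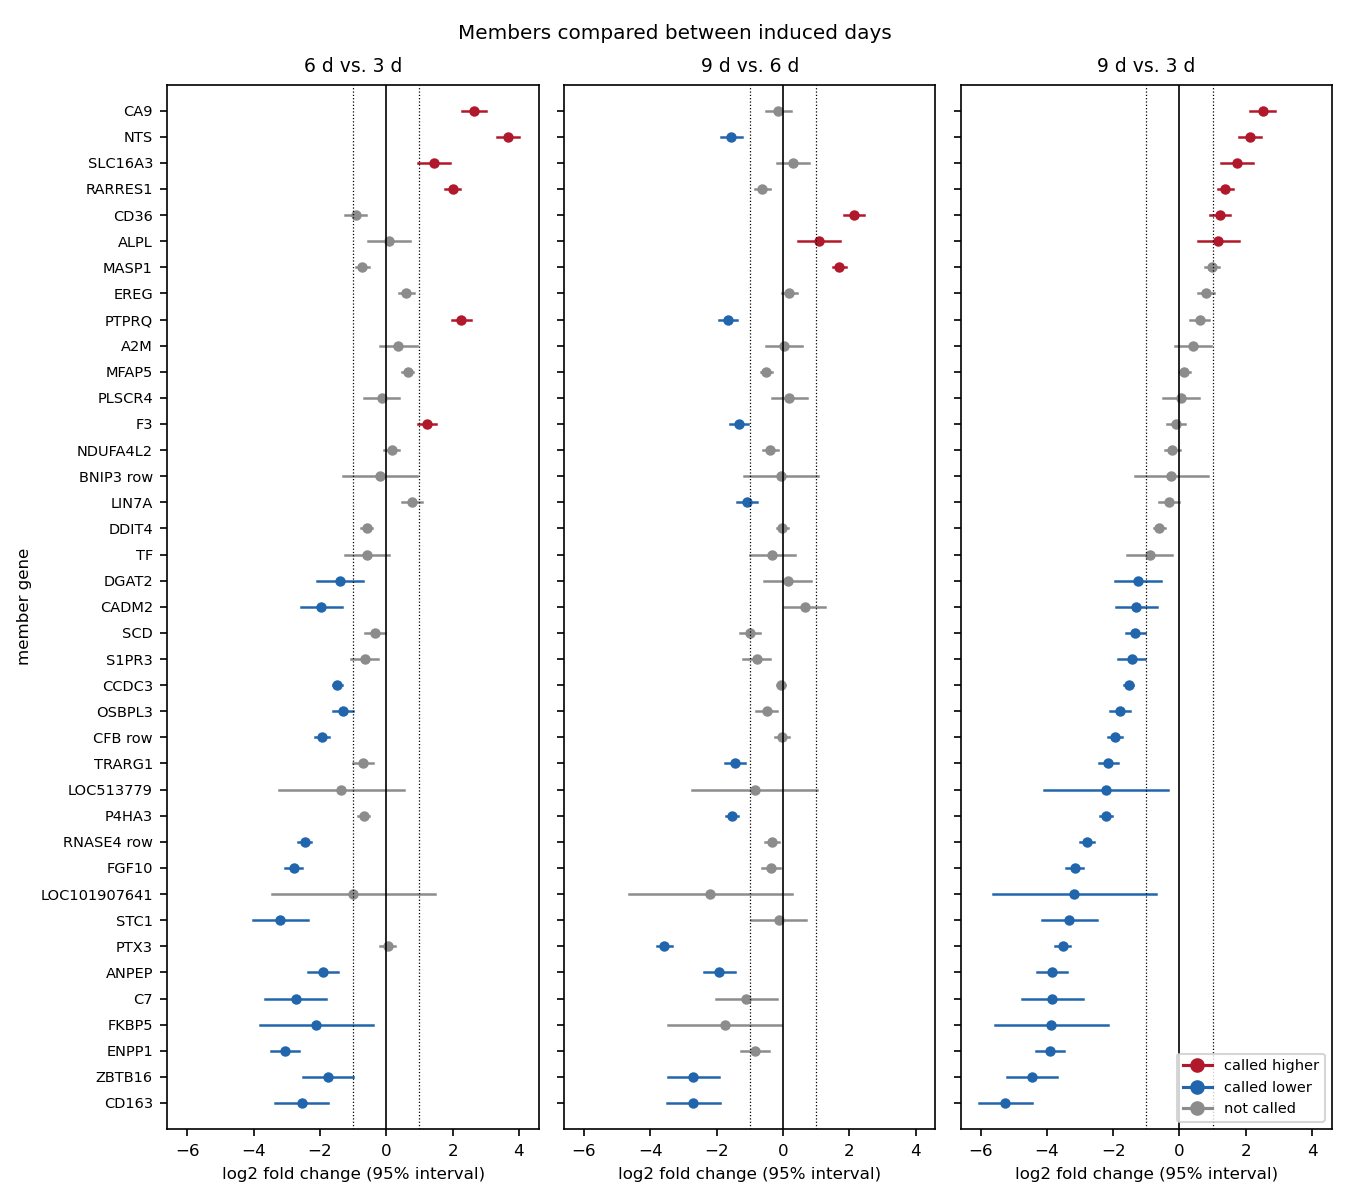
Log2 fold change of each member between induced days, with the 95% interval of limma, over 3 libraries for each day. Members are in rows, ordered by their change from 3 d to 9 d; red marks those called higher, blue those called lower and grey those not called, and dotted lines stand at -1 and 1. CA9 lies at 2.51 and CD163 at -5.26 from 3 d to 9 d, the ends of the range.

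Among the members of lipid metabolism, SCD and DGAT2 supply the product side of fat storage. SCD, the desaturase that makes monounsaturated fatty acids, had 28.3, 30.1 and 22.9 FPKM at 0 d, 279.8, 246 and 299 at 3 d, 204, 237 and 208 at 6 d, then 92.7, 119 and 116 at 9 d. It fell by 1.33 on the log2 scale (SE 0.13, adjusted p = 1.64e-05) from 3 d to 9 d, and the libraries of these days did not overlap. DGAT2, an enzyme of the last step of triglyceride synthesis, was at 0.04, 0 and 0.18 FPKM at 0 d and at 20.3, 22.1 and 23.1 at 3 d. It fell by 1.39 on the log2 scale (SE 0.31, adjusted p = 0.00423) to 6 d, where its libraries read 7.71, 8.97 and 8.13, and stood at 8.72, 7.51 and 11.5 at 9 d (log2 difference 0.14, 95% interval -0.56 to 0.84 against 6 d). With a pseudocount of 0.01 in place of 0.1, neither this fall nor the fall from 3 d to 9 d was called. Their sizes were then 1.40 and 1.26.

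CD36, a carrier of fatty acids into the cell, was the member with the lowest mean over the induced libraries, and it followed another course. Its libraries held 0.31, 0.31 and 0.3 FPKM at 0 d, 3.66, 3.1 and 3.46 at 3 d, 1.35, 2.02 and 1.94 at 6 d, then 7.7, 7.92 and 8.6 at 9 d. From 6 d to 9 d it rose by 2.15 on the log2 scale (SE 0.14, adjusted p = 5.38e-06), and from 3 d to 9 d it rose by 1.22. TRARG1, which takes part in the traffic of the insulin-responsive glucose transporter in fat cells, was listed at 0 in every 0 d library and is given no fold over 0 d. Its induced libraries read 17.9, 22.1 and 17.9 FPKM at 3 d, 11.4, 13.8 and 10.4 at 6 d, then 3.87, 4.16 and 4.84 at 9 d, and the later step was a call, in which it fell by 1.44 on the log2 scale (SE 0.13, adjusted p = 4.60e-05). OSBPL3, of the family of oxysterol-binding proteins, had 1.4 ± 0.16 FPKM before induction and 32 ± 2.3, 13 ± 1.9 and 9.2 ± 1.2 at 3, 6 and 9 d (mean ± SD, n = 3, as in all such values here). It fell by 1.79 on the log2 scale (SE 0.14, adjusted p = 2.47e-06) from 3 d to 9 d.

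The list of lipid storage and adipocyte metabolism held 36 tested genes beside these members. Against 0 d, 16 were higher and 4 lower at 3 d, where 8.06% of all mRNAs were called higher and 15.2% lower. At 6 d, 6 were higher and 1 lower (all mRNAs 3.39% and 7.97%), and at 9 d, 5 were higher and 2 lower (all mRNAs 3.41% and 7.47%). These shares of all mRNAs are the background for the counts against 0 d in every list below. All lists were chosen with earlier results of these data known, so their counts are a description. FABP4, the fatty acid binding protein of fat cells, had means of 3.3, 91.1, 26.4 and 9.07 FPKM at 0, 3, 6 and 9 d. The lipid droplet protein PLIN2 had 130.0, 668, 245 and 218 FPKM and passed at 3 d alone. Of the marker list of adipocytes, which holds CD36, 9 other genes were tested. FABP4 and ADIPOQ were higher than 0 d on every induced day, LPL and LIPE at 3 d alone, and CIDEC and LEP at 6 d and 9 d, whereas LEP was lower at 3 d. That list summed to 54.5, 62.3 and 62.5 FPKM at 0 d, 182, 182 and 188 at 3 d, 92.7, 100.5 and 105 at 6 d, then 101, 84.6 and 99.6 at 9 d, and its most abundant row was FABP4 at 3 d and the PLIN1 row on the other days. ADIPOQ, called higher throughout, stayed low in level, with means of 0.023, 0.723, 0.7 and 0.603 FPKM.

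**Figure D3:**
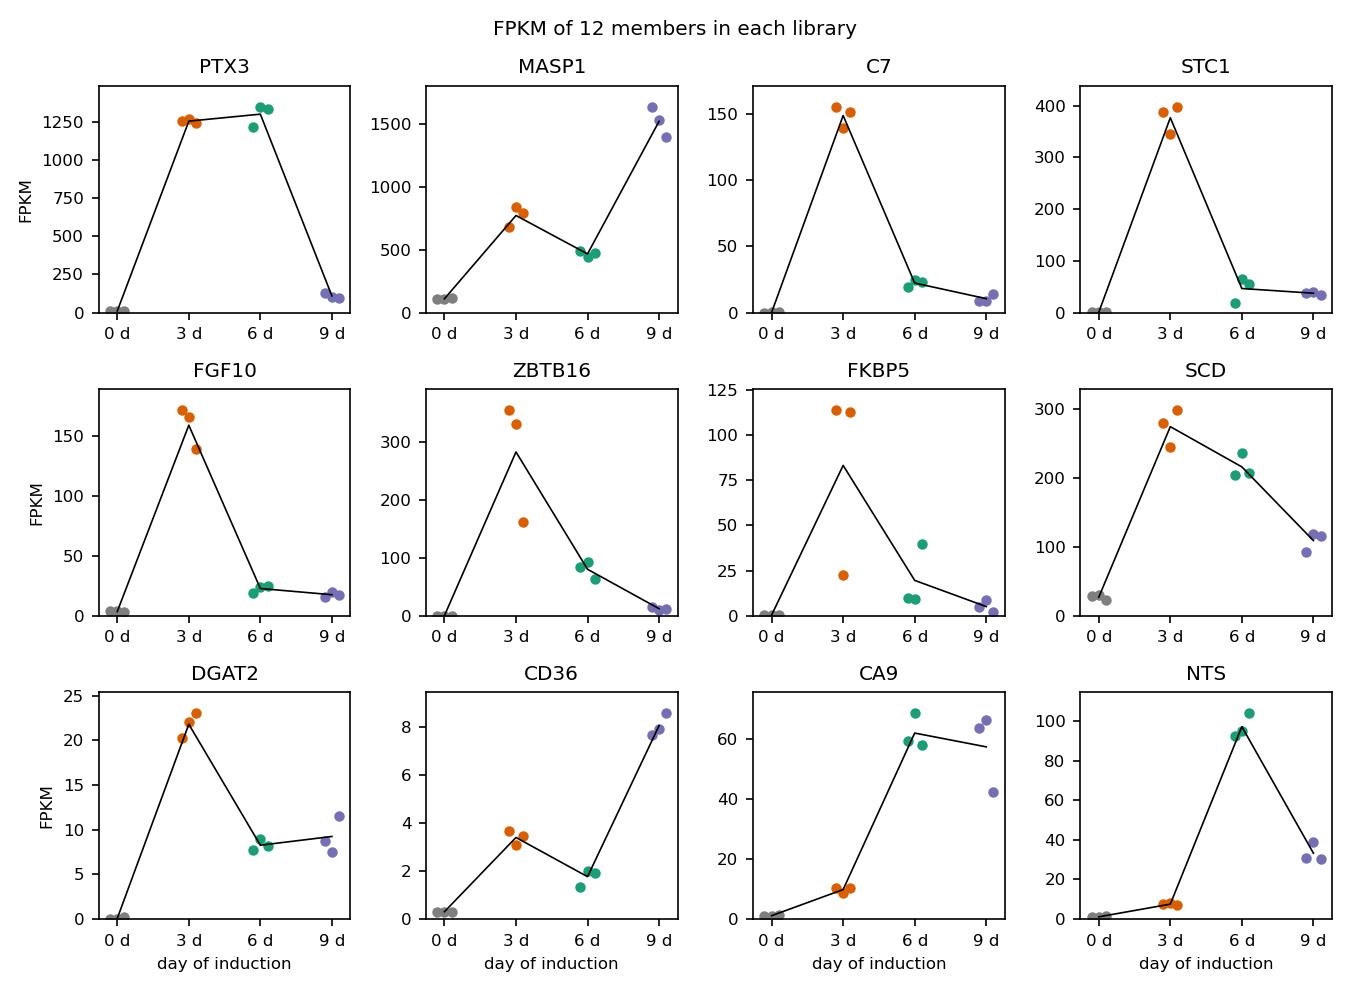
FPKM of 12 members in each library (points, 3 for each day) with the mean of each day (line), on linear axes that start at 0. Of these, PTX3 overlapped between 3 d and 6 d and was lower at 9 d, MASP1 and CD36 were highest at 9 d, NTS was highest at 6 d, and FKBP5 shows a wide spread between libraries of the same day.

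A further group of members serves glycolysis, acid balance, mitochondria and growth control. CA9, a carbonic anhydrase of the cell surface, rose most from 3 d to 9 d, with 1.17, 0.99 and 1.22 FPKM at 0 d, 10.3, 8.75 and 10.4 at 3 d, 59.4, 68.6 and 57.9 at 6 d, then 63.5, 66.1 and 42.4 at 9 d. It rose by 2.64 on the log2 scale (SE 0.17, adjusted p = 6.17e-07) from 3 d to 6 d, and 6 d and 9 d overlapped (log2 difference -0.13, 95% interval -0.50 to 0.23). SLC16A3, the exporter of lactate from glycolytic cells, had 16.7, 14.3 and 18.4 FPKM at 3 d, 49.1, 58.8 and 29.9 at 6 d, then 55.3, 59.7 and 50.1 at 9 d, against 3.62, 4.27 and 3.49 at 0 d. It rose by 1.43 on the log2 scale (SE 0.22, adjusted p = 3.46e-04) to 6 d.

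NDUFA4L2, a relative of a respiratory chain subunit, had 1.04 ± 0.0656 FPKM before induction and 12.4 ± 1.38, 13.8 ± 1.14 and 10.6 ± 0.748 at 3, 6 and 9 d. From 3 d to 9 d no change was called, and the interval excludes a difference of the called size (log2 difference -0.22, 95% interval -0.44 to 0.01). DDIT4, an inhibitor of the growth kinase mTOR that both glucocorticoids and stress induce, had 109, 109 and 123 FPKM at 0 d, 1042, 1066 and 1097 at 3 d, 681, 756 and 690.0 at 6 d, then 706, 642 and 758 at 9 d. It was lower at 9 d than at 3 d by less than the called size (log2 difference -0.61, 95% interval -0.77 to -0.44). The row that joins BNIP3, a receptor of mitochondrial autophagy, with LOC104976020 had 70.5, 76.6 and 78.9 FPKM at 3 d, 59.6, 76.2 and 63.1 at 6 d, then 59.6, 67.3 and 63.8 at 9 d. At 0 d its replicate 2 stood apart, with 3.71, 17.9 and 3.5, and that library alone put the row near the limit of the choice (ratio 3.32). Of the other 27 tested genes in the list of FOXO targets and insulin signalling, which holds BNIP3, 8 were higher and 6 lower than 0 d at 3 d, 2 were higher and 3 lower at 6 d and 2 were higher and 4 lower at 9 d.

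Complement and related defence proteins of the blood included the most abundant members. MASP1, a serine protease of the lectin pathway of complement, had 106, 106 and 119 FPKM at 0 d, 681, 842 and 796 at 3 d, 487, 444 and 471 at 6 d, then 1639.7, 1534 and 1394 at 9 d. The dip at 6 d missed the called size (log2 difference -0.72, 95% interval -0.92 to -0.52), and from 6 d to 9 d MASP1 rose by 1.70 on the log2 scale (SE 0.09, adjusted p = 1.59e-06), with all 3 libraries of 9 d above all those of 6 d. PTX3, a long pentraxin that binds microbes and complement, was at 9.4, 11.1 and 11.5 FPKM at 0 d, then at 1254, 1269.8 and 1240.3 at 3 d and 1216, 1350.1 and 1336 at 6 d, days that overlapped. At 9 d it read 126, 105 and 98.1, and it fell by 3.57 on the log2 scale (SE 0.10, adjusted p = 6.47e-08) in that step, which was the largest called fall among the members from 6 d to 9 d. Even so its lowest 9 d library, 98.1 FPKM, stood well above its highest 0 d library, 11.5 FPKM.

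C7, a subunit of the pore that complement inserts into membranes, was at 0, 0.32 and 0.11 FPKM at 0 d and 156, 139 and 152 at 3 d. It fell by 2.73 on the log2 scale (SE 0.42, adjusted p = 3.54e-04) to 6 d, and it had 19.6, 24.3 and 23.2 at 6 d, then 8.93, 8.85 and 13.9 at 9 d. The row that joins CFB and C2, neighbouring genes for the proteases of the complement convertases, could not be split between them. It had 8.8 ± 0.611 FPKM before induction and 136 ± 8.68, 35.4 ± 2.04 and 35 ± 3.88 at 3, 6 and 9 d. It fell by 1.94 on the log2 scale (SE 0.09, adjusted p = 1.06e-07) to 6 d, and the later step was not called (log2 difference -0.02, 95% interval -0.23 to 0.19). Of the other 12 tested genes in the list of complement components and regulators, 2 were higher and 3 lower than 0 d at 3 d and 1 was higher and 2 lower at 9 d. At 6 d limma called 7 lower and 0 higher, with 2 higher at an unadjusted p under 0.05. Complement C3 had means of 0.137, 0.503, 0.267 and 0.853 FPKM, and the initiator protease C1S 57.3, 45.6, 18.5 and 47.3. C5 and the C1Q genes C1QA and C1QC were listed at 0 in every library. Of all mRNAs, 8.06%, 3.39% and 3.41% were called higher at 3, 6 and 9 d, and 15.2%, 7.97% and 7.47% lower. MASP1, C7 and the CFB row were chosen for their height over 0 d, so that height is not compared with these counts.

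A2M, a broad trap of proteases, was not called between any induced days, with 7.12, 7.26 and 7.13 FPKM at 3 d, 9.67, 8.93 and 9.22 at 6 d, then 8.89, 9.94 and 9.82 at 9 d, beside 0.27, 0.76 and 0.6 at 0 d. F3, tissue factor, which starts blood clotting, had 1.3 ± 0.22 FPKM before induction and 5.28 ± 0.393, 12.4 ± 0.555 and 4.94 ± 0.364 at 3, 6 and 9 d. It rose by 1.22 on the log2 scale (SE 0.12, adjusted p = 1.73e-05) to 6 d and fell by 1.32 on the log2 scale (SE 0.12, adjusted p = 4.80e-05) to 9 d, where it was near its 3 d level (log2 difference -0.09, 95% interval -0.36 to 0.17 from 3 d). TF, transferrin, the iron carrier of plasma, had the largest ratio of lowest induced to highest 0 d level among members detected at 0 d, 83.7, with 0, 0 and 0.15 FPKM at 0 d. Its later libraries held 24.3, 27.1 and 27.6 at 3 d, 15.8, 17.8 and 18.9 at 6 d, then 12.6, 14.6 and 15.1 at 9 d. Among the 14 other tested genes of iron, copper and heme handling, 4, 4 and 4 were higher than 0 d at 3, 6 and 9 d, and STEAP3 at 3 d and the TFRC row at 6 d were lower. The TFRC row, which carries the receptor of transferrin, had 74.8, 63.3, 34.9 and 81.1 FPKM.

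ZBTB16 and FKBP5 were the members in the list of glucocorticoid-responsive genes. ZBTB16, a zinc finger transcription factor, had 0.53, 0.25 and 0.25 FPKM at 0 d, 355, 330.0 and 162 at 3 d, 84.4, 93 and 63.3 at 6 d, then 15.6, 9.89 and 11.5 at 9 d. It fell by 1.75 on the log2 scale (SE 0.34, adjusted p = 0.00172) from 3 d to 6 d and fell by 2.70 on the log2 scale (SE 0.34, adjusted p = 3.84e-04) from 6 d to 9 d, with no overlap between days. Although it kept 4.37% of its 3 d mean at 9 d, its lowest 9 d library was 18.7 times its highest 0 d library. FKBP5, a co-chaperone that dampens the glucocorticoid receptor, had 0.5, 0.48 and 0.29 FPKM at 0 d, 114, 22.7 and 113 at 3 d, 9.69, 9.34 and 39.8 at 6 d, then 4.65, 8.5 and 2.24 at 9 d. Libraries of the same day thus differed widely, and replicate 3 at 6 d was above replicate 2 at 3 d. FKBP5 fell by 3.86 on the log2 scale (SE 0.76, adjusted p = 0.00181) from 3 d to 9 d. It also fell by 2.11 on the log2 scale (SE 0.76, adjusted p = 0.0422) from 3 d to 6 d, and this was no longer called when any of 8 single libraries was left out, those of 0 d among them, and also without a filter on low values and in a fit of only the 6 libraries compared. In the fits that lost this call, FKBP5 fell by 1.72 to 2.11. Without replicate 2 of 3 d, it fell by 2.88 to 6 d and by 4.63 to 9 d, and without replicate 3 of 6 d it fell by 2.79 to 6 d.

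Of the other 23 tested genes of this list, 17 were higher and 2 lower than 0 d at 3 d, 12 were higher and 2 lower at 6 d and 7 were higher and 1 lower at 9 d. Of all mRNAs, 8.06%, 3.39% and 3.41% were called higher on these days, and 15.2%, 7.97% and 7.47% lower. The 7 listed genes called higher at 9 d had taken different courses. KLF9 (its row), MT2A and MAOA were higher on every day with means that declined from 3 d on. MT2A, a metal-binding metallothionein, had means of 3.05, 114, 45.4 and 11.2 FPKM at 0, 3, 6 and 9 d, and MAOA, a monoamine oxidase, 259, 4216, 1493 and 750.1. IGFBP2 was also higher on every day, with means of 4.3, 11.9, 19.2 and 18.9 FPKM that were larger after 3 d. ERRFI1, an inhibitor of the EGF receptor, was lower at 3 d and higher at 6 d and 9 d (28.4, 14.1, 144 and 262 FPKM). FAM107A (0.463, 1.17, 1.03 and 8.27 FPKM) and ANGPTL4 were higher at 3 d and 9 d but not called at 6 d. TSC22D3 was at 8.13, 34.9, 19.8 and 8.25 FPKM, and its difference from 0 d was not called at 9 d. For the list of adipogenic transcription factors, which also holds ZBTB16, 6 were higher and 3 lower of 23 other tested genes at 3 d, 1 was higher and 4 lower at 6 d and 2 were higher and 4 lower at 9 d.

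STC1, FGF10, CCDC3 and the RNASE4 row encode secreted proteins and had their highest means at 3 d. STC1, stanniocalcin, a glycoprotein hormone that also inhibits the protease PAPPA of the IGF axis, had 0.66, 0.57 and 0.6 FPKM at 0 d, 387, 345 and 398 at 3 d, 18.9, 64.8 and 56.1 at 6 d, then 37.9, 40.4 and 34.3 at 9 d. It fell by 3.19 on the log2 scale (SE 0.37, adjusted p = 5.24e-05) to 6 d, where replicate 1 was below the others, and its 6 d and 9 d values overlapped. FGF10, a growth factor that precursors of fat cells secrete, had 3.68, 3.65 and 3.48 FPKM at 0 d, 172, 166 and 139 at 3 d, 19.4, 24.5 and 24.6 at 6 d, then 16.1, 19.8 and 17 at 9 d, and it fell by 2.80 on the log2 scale (SE 0.12, adjusted p = 4.05e-08) to 6 d. CCDC3, a secreted protein of fat tissue, had 14.5 ± 0.631 FPKM before induction and 314 ± 16.8, 112 ± 5.53 and 108 ± 1.71 at 3, 6 and 9 d. It fell by 1.48 on the log2 scale (SE 0.06, adjusted p = 2.49e-08) to 6 d, and 6 d and 9 d overlapped (log2 difference -0.06, 95% interval -0.19 to 0.08). The row that joins the secreted ribonucleases RNASE4, ANG2 and ANG, whose genes overlap, had 2.85 ± 0.0902 FPKM before induction and 68.8 ± 1.58, 12.5 ± 1.57 and 9.85 ± 0.629 at 3, 6 and 9 d. It fell by 2.46 on the log2 scale (SE 0.09, adjusted p = 1.37e-08) to 6 d.

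NTS, RARRES1 and EREG had their highest means after 3 d. NTS, the precursor of the peptide neurotensin, had 1.17, 0.91 and 1.33 FPKM at 0 d, 7.41, 8.33 and 6.87 at 3 d, 92.5, 94.9 and 104 at 6 d, then 30.6, 39 and 30.1 at 9 d. It rose by 3.67 on the log2 scale (SE 0.14, adjusted p = 2.33e-08) from 3 d to 6 d, the largest called rise of any member between induced days, and fell by 1.55 on the log2 scale (SE 0.14, adjusted p = 5.40e-05) from 6 d to 9 d. RARRES1, a gene responsive to retinoic acid, had 8.75, 7.35 and 8.9 FPKM at 0 d, 68.1, 85.2 and 77.7 at 3 d, 288, 306 and 332 at 6 d, then 195, 211 and 193 at 9 d. It was called higher at 6 d than at 3 d, and it rose by 1.38 on the log2 scale (SE 0.10, adjusted p = 1.83e-06) from 3 d to 9 d. EREG, epiregulin, a ligand of the EGF receptor, had 0.42 ± 0.0361 FPKM before induction and 3.46 ± 0.12, 5.34 ± 0.431 and 6.15 ± 0.745 at 3, 6 and 9 d, with no call between induced days (log2 difference 0.81, 95% interval 0.57 to 1.04 from 3 d to 9 d).

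In the list of the IGF axis, to which STC1 belongs, 5 were higher and 4 lower than 0 d at 3 d among 16 other tested genes, 2 were higher and 4 lower at 6 d and 3 were higher and 1 lower at 9 d. PAPPA had means of 17.2, 127, 28 and 36.7 FPKM, and STC2, the relative of STC1, 2.53, 0.05, 3.08 and 3.48. STC2 was thus low at 3 d, the day on which STC1 was highest.

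Members at the cell surface included a pair of enzymes of pyrophosphate. ENPP1, which makes pyrophosphate and so restrains mineral deposition, had 2.86, 2.41 and 2.73 FPKM at 0 d, 302, 307 and 274 at 3 d, 27.9, 45.5 and 34.2 at 6 d, then 19.5, 15.8 and 24.4 at 9 d. It fell by 3.06 on the log2 scale (SE 0.19, adjusted p = 5.61e-07) to 6 d and fell by 3.90 on the log2 scale (SE 0.19, adjusted p = 8.18e-08) from 3 d to 9 d. ALPL, the phosphatase that breaks pyrophosphate down, had 0.68, 1.83 and 1.09 FPKM at 0 d, 11.5, 12.1 and 9.76 at 3 d, 11.4, 14.9 and 9.51 at 6 d, then 24.9, 26.1 and 24.5 at 9 d. It rose by 1.18 on the log2 scale (SE 0.28, adjusted p = 0.00581) from 3 d to 9 d, the opposite direction to ENPP1. From 6 d to 9 d it rose by 1.09 on the log2 scale (SE 0.28, adjusted p = 0.0213), close to the called size. That value was 0.94 without replicate 3 of 6 d, and it was no longer called when any of 5 single libraries was left out (0.94 to 1.11 in those fits). ALPL is also in the marker list of tendon, cartilage and bone, of whose 6 other tested genes 2, 1 and 1 were lower than 0 d at 3, 6 and 9 d. Limma called 0 of them higher, with 1, 1 and 0 higher at an unadjusted p under 0.05. Without ALPL the list summed to 77.4, 83.9 and 75.8 FPKM at 0 d, 70.3, 54.1 and 17.3 at 3 d, 81.1, 72.9 and 73.5 at 6 d, then 67.1, 63.4 and 70.8 at 9 d, with MKX the most abundant at 0 d and 9 d and RUNX2 at 3 d and 6 d. Replicate 3 of 3 d lay below all other libraries.

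CD163, the receptor by which macrophages take up hemoglobin bound to haptoglobin, had 0.59, 0.79 and 0.57 FPKM at 0 d, 204, 114 and 85.2 at 3 d, 28.3, 26.4 and 13 at 6 d, then 3.97, 2.72 and 2.98 at 9 d. It fell by 5.26 on the log2 scale (SE 0.36, adjusted p = 1.06e-06) from 3 d to 9 d, the largest called fall, and it kept 2.40% of its 3 d mean. Of other markers of blood and immune cells, PTPRC, ITGAM and HBB were listed at 0 in every library, and CD68 had means of 0.193, 0.29, 0.217 and 0.237 FPKM. The marker list of blood and immune cells summed to 2.68, 1.97 and 1.71 FPKM at 0 d, 209, 119.7 and 90.9 at 3 d, 30.7, 29.8 and 18.5 at 6 d, then 8.46, 6.71 and 6.33 at 9 d, most of it CD163 itself at 3 d and 6 d. Of its 4 other tested genes, CD79A was higher than 0 d on every induced day (0.243, 1.96, 1.88 and 1.15 FPKM). Its 0 d libraries read 0.73, 0 and 0 FPKM, and those of 6 d (0.48, 1.52 and 3.63) and 9 d (1.72, 0.61 and 1.12) overlapped them. The macrophage markers CD14 (0.673, 2.4, 1.27 and 2.22 FPKM) and CSF1R (0.33, 0.87, 0.32 and 0.29 FPKM) were higher at 3 d, and CD14 again at 9 d. ANPEP, aminopeptidase N, like CD163 fell in both steps, with 0.49, 0.55 and 0.69 FPKM at 0 d, 28.8, 34.2 and 43.5 at 3 d, 7.97, 8.06 and 12 at 6 d, then 2.75, 2.17 and 2.21 at 9 d. It fell by 1.92 on the log2 scale (SE 0.20, adjusted p = 2.88e-05) to 6 d and fell by 1.91 to 9 d.

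The remaining surface proteins and scaffolds took several courses. PTPRQ, a receptor-type phosphatase, had 0.323 ± 0.0681 FPKM before induction and 2.47 ± 0.141, 12.2 ± 1.12 and 3.82 ± 0.362 at 3, 6 and 9 d. It rose by 2.26 on the log2 scale (SE 0.13, adjusted p = 2.99e-07) to 6 d and fell by 1.66 to 9 d. LIN7A, a scaffold of cell junctions, also had its highest mean at 6 d, with 0.9 ± 0.135 FPKM before induction and 5.54 ± 0.448, 9.55 ± 1.05 and 4.46 ± 0.552 at 3, 6 and 9 d. It fell by 1.08 on the log2 scale (SE 0.13, adjusted p = 3.07e-04) from 6 d to 9 d, close to the called size. Without replicate 2 of 6 d it fell by 1.00, with a pseudocount of 1 it fell by 0.95, and neither was called. S1PR3, a receptor of the lipid mediator sphingosine phosphate, had 0.55 ± 0.0872 FPKM before induction and 9.24 ± 0.845, 5.88 ± 0.89 and 3.4 ± 0.786 at 3, 6 and 9 d, and it fell by 1.44 (log2) from 3 d to 9 d. CADM2, an adhesion molecule, had 0.167 ± 0.141 FPKM before induction and 9.07 ± 0.849, 2.26 ± 0.141 and 3.62 ± 0.208 at 3, 6 and 9 d. It fell by 1.96 on the log2 scale (SE 0.28, adjusted p = 2.17e-04) to 6 d. The last of them, PLSCR4 of the phospholipid scramblase family, had 22.3, 20.8 and 24.2 FPKM at 0 d, 92.1, 95.4 and 90.1 at 3 d, 91.8, 78.4 and 81.7 at 6 d, then 157, 75 and 74.6 at 9 d. Its highest mean, at 9 d, thus came from replicate 1, since the other libraries of 9 d were below those of 3 d.

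Of the matrix genes, P4HA3 is a catalytic subunit of the enzyme that hydroxylates proline in collagen. It had 7.8, 7.31 and 7.98 FPKM at 0 d, 161, 183 and 176 at 3 d, 101, 117 and 106 at 6 d, then 39.7, 35.4 and 36.6 at 9 d, and it fell by 1.53 on the log2 scale (SE 0.08, adjusted p = 1.22e-06) from 6 d to 9 d. MFAP5, a protein of the microfibrils of elastic tissue, had 18.3 ± 0.811 FPKM before induction and 67.5 ± 3.95, 106 ± 4.62 and 74.8 ± 6.14 at 3, 6 and 9 d, with no call between induced days (log2 difference 0.15, 95% interval -0.02 to 0.31 from 3 d to 9 d). Of the other 22 tested genes of small leucine-rich proteoglycans and matrix, 3 were higher and 6 lower than 0 d at 3 d, 5 were higher and 8 lower at 6 d and 4 were higher and 5 lower at 9 d. DCN, which missed the ratio of 3 narrowly, was by far the most abundant gene of that list, with means of 9949, 42430.4, 31464 and 44464 FPKM. MFAP4, another microfibril-associated protein of the list, was lower than 0 d on every induced day (3.41, 0.257, 0.367 and 0.347 FPKM).

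Circular RNAs gave another readout of the same genes, in counts that the choice did not use. These counts come from the same libraries as the FPKM, however, so a height over 0 d in them is not independent of the choice. Most circular RNAs form when the end of an exon is joined back to an earlier one, and others are typed as intronic. Both kinds are counted by reads across the junction and are pooled here as back-spliced reads. Circles typed as intronic are among those of ZBTB16, ENPP1, FGF10, F3 and PTX3. A library held 5358 to 10729 such reads, and those of 9 d held the most. Of 14070 circular RNAs, 46 with 193 reads in all lay in 14 member genes. The reads of these 46 numbered 0, 1 and 3 in the libraries of 0 d, all from P4HA3, then 41, 26 and 30 at 3 d, 15, 17 and 33 at 6 d, then 5, 11 and 11 at 9 d. By day that is 4 of 21816 back-spliced reads before induction, then 97 of 24067, 65 of 19650 and 27 of 30141. Every induced library had a larger member share than every 0 d library. Pooled by day the share was largest at 3 d, but that lead came from replicate 1, and the other libraries of 3 d lay within the range of 6 d.

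Of the 11 circular RNAs of members with at least 5 reads, 0 were called in a comparison with 0 d by edgeR, with 3 at an unadjusted p under 0.05, and by DESeq2 0 were called and 0 were under that unadjusted p. Over all circular RNAs tested, 1.2% were called by edgeR. The most read was a circle of 2 exons of P4HA3 at chr15:53671868-53673250 on the minus strand (build ARS-UCD1.2), with 48 reads, of which 9, 9 and 7 were in the libraries of 3 d. It had 0, 0 and 3 at 0 d. Circles with nearly the same ends were listed and tested apart. ZBTB16 has circles of 3 exons at chr15:24586799-24716038 (9 reads) and chr15:24586798-24716038 (8 reads), and no library holds reads of both. The number of circles and the tests by circle may thus rest in part on split rows, which sums by gene do not.

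Summed over the circles of a gene, a step added after the data were seen, the reads of P4HA3 and ZBTB16 were called among 6 member genes tested, against 1.04% of all host genes. Members were chosen for a higher mRNA level in these same induced libraries, so the share of all host genes is not a like background. ZBTB16 met the limit of 5 reads through 3 d and 6 d alone. P4HA3 had 0, 1 and 3 back-spliced reads at 0 d, 22, 14 and 19 at 3 d, 8, 9 and 11 at 6 d, then 4, 8 and 7 at 9 d. Its circular RNAs rose by 3.43 on the log2 scale from 0 d to 3 d (edgeR, adjusted p = 0.000243) and by 2.79 to 6 d (adjusted p = 0.0313), and those days did not overlap with 0 d. ZBTB16 had no back-spliced read in the 3 libraries of 0 d or of 9 d, and 10, 9 and 3 at 3 d and 4, 7 and 8 at 6 d. Of these, 2 reads in replicate 1 of 3 d came from a circle on the minus strand, while all other circles assigned to ZBTB16 were on the plus strand. It was called at 3 d and at 6 d against 0 d (edgeR, adjusted p = 0.018 and 0.0221), and it was called lower at 9 d than on either earlier day (adjusted p = 0.00987 against 3 d and 0.0193 against 6 d). Without the minus-strand circle all of these calls held (adjusted p = 0.0359 and 0.0268 against 0 d, and 0.0213 and 0.0242 for 9 d against 3 d and 6 d). Set against a floor of 3 reads over the libraries of a day, its observed share of back-spliced reads at 6 d was 7.03-fold the floor of 0 d and 9.72-fold that of 9 d. The floor allows for counting error in the counts of 0 only. It covers neither the counting error of the 19 reads at 6 d nor the spread between libraries. The mRNA of ZBTB16 at 9 d was above 0 d in all 3 libraries while its circles were at 0 reads on both days. A count of 0 of 30141 reads allows up to 3, so circles of ZBTB16 at 9 d were not detectable at this depth, which does not show that they were absent. When any of the 0 d libraries was left out, 1 of these genes was still called.

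**Figure D4:**
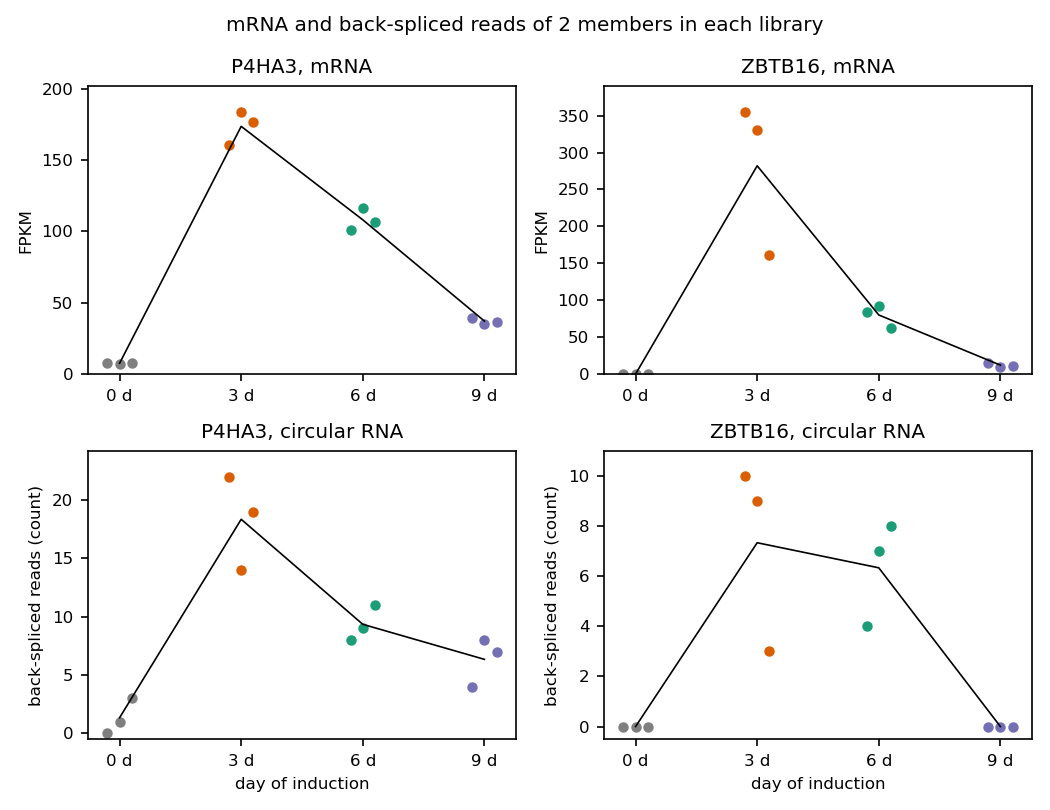
FPKM of the mRNA (upper row) and count of back-spliced reads summed over the circular RNAs (lower row) of P4HA3 and ZBTB16, in each library (points) with the mean of each day (line). P4HA3 has 14 to 22 back-spliced reads at 3 d and at most 3 at 0 d, and ZBTB16 has 3 to 10 at 3 d and none at 0 d and 9 d.

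ENPP1 followed with 13 reads, none at 0 d, and was not called (3 d against 0 d adjusted p = 0.544 by edgeR). CD36 had 9 reads, of which 6 were in replicate 3 of 6 d, and RARRES1 had 7, of which 6 were at 6 d. Among the induced days 6 d had the highest mean mRNA of RARRES1 but the lowest of CD36. None of the other 9 host genes had more than 6 reads.

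The genes beside the members, taken from the order of genes in the reference table (assembly ARS-UCD2.0), were read in the same fit. Of 76 neighbours, 56 were in the mRNA table and 27 were tested. At 3 d 5 of these were higher and 2 lower than at 0 d, where all mRNAs had 8.06% and 15.2%. At 6 d limma called 3 higher and 0 lower (8 lower at an unadjusted p under 0.05), beside 3.39% and 7.97% of all mRNAs. At 9 d 2 were higher and 4 lower, beside 3.41% and 7.47%. ARMC12 and LOC101906451 were the only neighbours higher on every induced day, and they were picked out after their values were seen. ARMC12, an armadillo-repeat gene that lies next to FKBP5 without overlap, had 0.31, 0.84 and 0.51 FPKM at 0 d, 36.3, 23.3 and 20.2 at 3 d, 10.9, 11.1 and 5.51 at 6 d, then 3.7, 3 and 1.98 at 9 d. Against 0 d it rose by 5.39 on the log2 scale (adjusted p = 1.22e-06) at 3 d and was still higher at 9 d, where it rose by 2.23 on the log2 scale (adjusted p = 0.00133). The lowest library of ARMC12 was replicate 3 on every induced day, and that of FKBP5 was replicate 2 at 3 d, replicate 2 at 6 d and replicate 3 at 9 d.

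LOC101906451, a long noncoding RNA whose span overlaps the edge of MASP1, had 1.19, 0.77 and 0.61 FPKM at 0 d, 7.05, 8.6 and 7.5 at 3 d, 3.69, 3.05 and 4.11 at 6 d, then 9.45, 9.53 and 9.69 at 9 d. This is the course of MASP1, lower at 6 d than at 3 d and highest at 9 d, and from 6 d to 9 d it rose by 1.39 on the log2 scale (adjusted p = 8.22e-04). The member LOC101907641, also a long noncoding RNA, lies inside the span of ZBTB16 in the reference table. It had 0.05, 0 and 0.05 FPKM at 0 d, 126, 56.1 and 2.65 at 3 d, 17.4, 14.2 and 9.8 at 6 d, then 3.3, 3.06 and 2.34 at 9 d. Replicate 3 at 3 d was low for both genes, but far more so for LOC101907641. The authors describe strand-specific libraries but not whether FPKM were counted by strand, so reads of overlapping genes cannot be told apart here. LOC101907641 fell by 3.18 from 3 d to 9 d (log2, adjusted p = 0.0344). It fell by 2.07 without replicate 1 of 3 d and fell by 4.82 without replicate 3 of 3 d, and the call was lost when any of 5 single libraries was left out, with a pseudocount of 0.01 and in a fit of only the 6 libraries compared. Its fall was 2.07 to 3.28 in the fits that lost the call. The pseudogene LOC513779 had 0, 1.37 and 0 FPKM at 0 d, 30.5, 23.6 and 25.4 at 3 d, 8.9, 11.4 and 10.6 at 6 d, then 6.17, 5.95 and 4.84 at 9 d. It fell by 2.21 on the log2 scale (SE 0.84, adjusted p = 0.0498) from 3 d to 9 d, and that call was lost when any of the 9 induced libraries was left out, with a pseudocount of 0.01, without a filter and with rescaled FPKM. In the fits that lost the call, LOC513779 fell by 2.10 to 2.29.

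**Figure D5:**
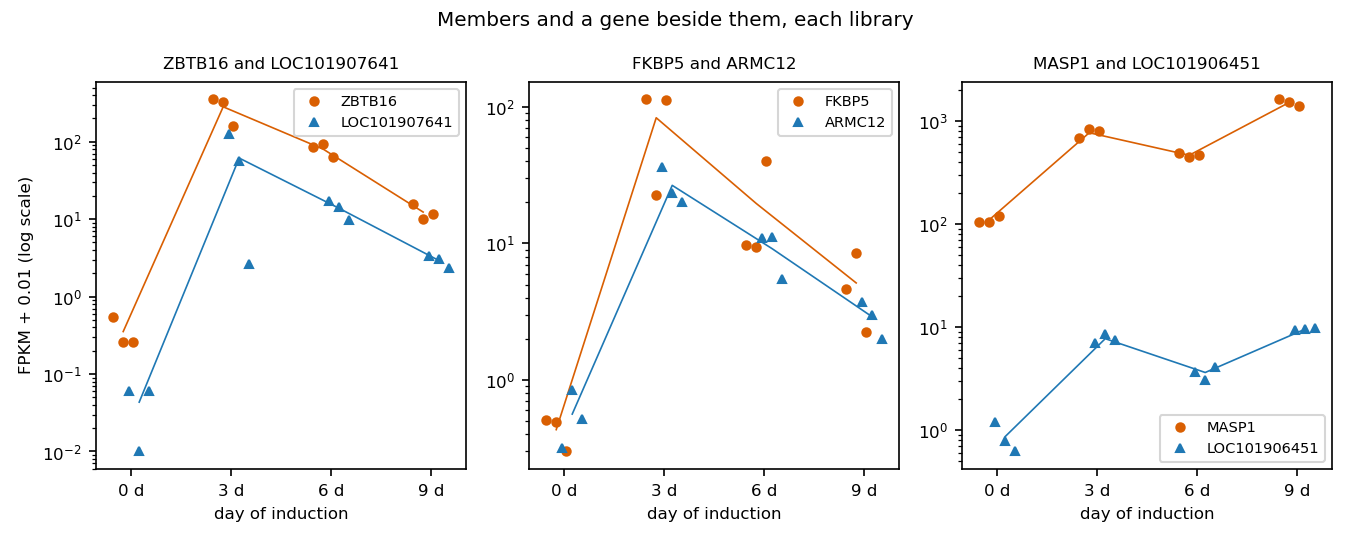
FPKM plus 0.01 on a log axis of ZBTB16, FKBP5 and MASP1 (circles) and of a gene beside or overlapping each (triangles) in each library, with lines through the mean of each day. LOC101906451 has 3.05 to 4.11 FPKM at 6 d and 9.45 to 9.69 at 9 d. In the 9 induced libraries ARMC12 and LOC101906451 stand above their 0 d values, and LOC101907641 does so by the rule, since it is itself a member.

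Markers of other cell types moved on the same days, and their part in the levels of the members was not tested. Of 14 tested markers of skeletal muscle, 9, 10 and 10 were lower than 0 d at 3, 6 and 9 d. Limma called 0 higher, with 0, 1 and 0 higher at an unadjusted p under 0.05. They summed to 1593, 1621 and 1803 FPKM at 0 d, 433, 534 and 540.2 at 3 d, 697, 647 and 723 at 6 d, then 666, 622 and 705 at 9 d, with DES the most abundant at 6 d and MYL1 on the other days. The markers of progenitors of fat and connective tissue summed to 973, 951 and 943 at 0 d, 1428, 1514 and 1435 at 3 d, 736, 734 and 736 at 6 d, then 1163, 1083 and 1107 at 9 d. Of their 8 tested genes, 3, 2 and 1 were higher on the successive induced days and 3, 2 and 1 lower, while DLK1 and LY6H were at or near 0. PDGFRA was the most abundant at 3 d, with a mean of 929.5 FPKM beside 159.6 at 0 d, and was called higher. PDGFRB was the most abundant on the other days and was called lower at 3 d and at 6 d, with 226 and 212 FPKM beside 586 at 0 d. Markers of pericytes and smooth muscle summed to 2521, 2563 and 2739.8 at 0 d, 738, 814 and 724 at 3 d, 2427, 2589 and 2586 at 6 d, then 1132, 1059 and 1144 at 9 d, with 2, 3 and 1 of 9 higher and 6, 2 and 3 lower on the successive days. ACTA2 was the most abundant of them except at 3 d, where its mean was 26.8 FPKM and that of KCNJ8, called higher on every induced day, was 485. Endothelial markers summed to 2.61 to 3.81 FPKM in a library, with VWF the highest in mean on each day, and 1 of 3 tested was called, lower at 6 d. Markers of Schwann cells, led by PMP22, summed to 119, 119 and 122 FPKM at 0 d, 20.6, 24.1 and 22.4 at 3 d, 32.1, 35.4 and 35.1 at 6 d, then 81, 77.6 and 90.3 at 9 d, so that they were lowest at 3 d. Of 3 tested, 2, 2 and 1 were lower and 1 was higher at 3 d, where S100B had a mean of 11.1 FPKM and PMP22 11.2.

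Taken over all lists of functions, 247 tested genes were not members. Of these, 67, 36 and 34 were higher than 0 d on the successive induced days and 51, 37 and 25 were lower. Of all mRNAs, 8.06%, 3.39% and 3.41% were higher and 15.2%, 7.97% and 7.47% lower. Of 16 proliferation genes limma called 0 in either direction on any day. At an unadjusted p under 0.05, 8, 1 and 4 of them were higher and 0, 3 and 7 lower. The adipokines held no member, and of 9 tested, 2 were higher and 3 lower at 3 d, 5 higher at 6 d, and 4 higher and 1 lower at 9 d, with leptin (LEP) at 2.34, 0.07, 8.02 and 20.5 FPKM. Nor did the Wnt inhibitors hold any, of which 4, 3 and 4 of 10 were higher on the successive days and 4, 2 and 1 lower. The same holds for the redox genes (10, 2 and 4 of 26 higher and 4, 2 and 2 lower), the clock genes (1, 1 and 0 of 18 higher and 8, 0 and 0 lower by limma, with 5, 6 and 3 higher and 9, 3 and 3 lower at an unadjusted p under 0.05) and the interferon-stimulated genes (4, 4 and 2 of 9 lower). When FPKM were rescaled between libraries by their median ratio, the median of all mRNAs shifted up by 0.16 (log2) for 9 d against 0 d and by 0.13 for 6 d. The share of higher among all calls at 9 d was 44.2% in place of 31.3%. Under that scaling all 39 members still met the rule and 8 further rows joined them.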

How the data were processed

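Bovine long RNA libraries (3 each at 0, 3, 6 and 9 d) were used as deposited. The authors trimmed and aligned the reads to ARS-UCD1.2 with Bowtie2 and HISAT2, and deposited mRNA levels as FPKM, to 2 decimals. The submitters' processing notes list HISAT2 2.0, StringTie 1.3.0 and Bowtie 0.12.2, without roles. The same labels name the mouse build mm8 and poly(A) selection, where the paper has rRNA depletion; the conflict is unresolved. For circular RNAs the authors deposited a count of back-spliced reads per library. The deposited SRPBM, a signal that is the count scaled by mapped reads, gave the reads per library. The lncRNA and miRNA tables were not used here, and 0 value columns of the tables used were left out.

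Members and gene lists were chosen with earlier results of these data known. FPKM were moved to log2 after adding 0.1 and tested by limma 3.58.1 (linear fit per row, moderated variance with a trend) in a single fit of all 12 libraries, for rows with a mean FPKM of at least 0.1; fold changes on this scale understate those of low genes. Counts (at least 5 over all libraries) were tested with edgeR 4.0.16 (TMM, glmQLFit, glmQLFTest), with DESeq2 1.42.0 as an alternative. A feature was called where its p, adjusted by the Benjamini-Hochberg method, was under 0.05 and its log2 fold change exceeded 1 in size. The limma fit and the edgeR test of single circular RNAs were also run on simulated data. The sums by host gene and DESeq2 were not. The simulated counts spread less than the real ones, and the changes were set in well-read circles. That run therefore does not check the tests of circles with few reads. FPKM of 0.01 steps are too coarse to recover whole reads, since 1 read on 1 kb is worth 0.0163 FPKM at the median depth that SRPBM implies.

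Named members follow a rule: the 10 most abundant, the 10 with the largest ratio, those in a list, the 3 largest called rises and falls of each induced-day comparison whose libraries do not overlap, those at the limits and the hosts of called or most read circular RNAs. The rule names 33, and EREG, F3, LIN7A, LOC513779, OSBPL3 and S1PR3 were added to account for all. Other listed genes named as examples were picked after their values were seen. There were 14 lists of functions and 8 of cell type markers. Alternatives were other pseudocounts, filters and thresholds, FPKM rescaled by median ratio, a fit limited to the libraries of a comparison, a replicate block, and leaving out each library. Scripts ran in R 4.3.3 and Python 3.11.15, where pandas 2.3.3 and NumPy 2.4.6 read the tables and Matplotlib 3.10.9 drew the figures.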

Additional observations from a re-analysis of the deposited data

How the results depend on the processing

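No called direction reversed. There were 60 called changes of single members between induced days. Leaving out a library kept the call in 692 of 720 values and lost it in 28, in 5 changes. Other settings kept it in 408 of 420 and lost it in 12, in 6 changes. The changes that lost their call were those of FKBP5 from 3 d to 6 d, ALPL and LIN7A from 6 d to 9 d, and LOC101907641, LOC513779 and DGAT2 from 3 d to 9 d, and for DGAT2 also from 3 d to 6 d. Where a call was lost, the log2 size was below 1 only for ALPL, without replicate 3 of 6 d, and for LIN7A. In the other fits that lost a call, the adjusted p no longer passed. The cause was not tested. The number of members by the rule was 73 with a ratio of 2 and 25 with a ratio of 4, and 38 to 47 with other floors or rescaled FPKM. Leaving out a library gave 39 to 45, and ENPP1 was lost, as a 3 d peak, without replicate 2 of 6 d. Over all fits of the 39 members, those that fell from 3 d to 9 d numbered 18 to 21, and those that fell from 3 d to 6 d 13 to 15. Of the 41 rows chosen with no limit on 3 d peaks, 23 and 16 fell. Member genes called on summed back-spliced reads numbered 1 to 2 without a library, 1 without any of the libraries of 0 d, and 2 without the minus-strand circle of ZBTB16. Genes beside members that were higher at 3 d numbered 3 with a pseudocount of 1, 3 with a mean FPKM of at least 1, 6 with no filter on low values, and 4 to 5 without a library. Other listed genes higher at 9 d numbered 26 to 37.

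Replicate numbers did not pair the libraries: deviations of libraries with the same number correlated at -0.098 to 0.112. With a replicate block, 6 members rose and 13 fell from 3 d to 6 d, 3 rose and 10 fell from 6 d to 9 d, 6 rose and 20 fell from 3 d to 9 d, 34 other listed genes were higher and 24 lower at 9 d, and 0 circular RNAs of members (2 at an unadjusted p under 0.05) and 2 host genes were called by edgeR. The fall of FKBP5 from 3 d to 6 d and that of LOC513779 from 3 d to 9 d were not called with the block. Within a day, the median coefficient of variation of the members was 8.08% at 3 d, 9.39% at 6 d and 11.1% at 9 d, beside 8.74%, 7.64% and 7.75% for 9786 rows of at least 1 FPKM. The limits of the rule, 3 libraries a day and few back-spliced reads bound what can be told of single members.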
